A study of Mus musculus with 39 samples.

Results

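Tumours of mice given tretinoin alone were set directly against tumours of mice given immune checkpoint therapy (ICT) alone, to find the genes that separate the single treatments. The 9 tretinoin tumours and 10 ICT tumours were taken by their deposited treatment labels, 19 of the 39 tumours of the series. All came from BALB/c mice bearing subcutaneous AB1-HA tumours, grown from murine mesothelioma cells into which influenza haemagglutinin was introduced. Tretinoin was given intraperitoneally at 5 mg/kg in 5 daily doses from day 4, and ICT as 100 µg of anti-CTLA-4 and 100 µg of anti-PD-L1 antibody from day 7. Every tumour was resected on day 9 and its RNA was sequenced in bulk, and 10 tumours of mice given PBS serve here as background. The labels do not give age or sex for each mouse. The study describes mice of both sexes, a number of tretinoin doses for this experiment that differs from the days of dosing in the labels, and a control for tretinoin that held DMSO, the solvent of tretinoin, which the control for ICT did not. Solvent, time since the first dose and drug therefore move together between the groups and cannot be told apart.

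Tretinoin is all-trans retinoic acid. It binds retinoic acid receptors, which sit on DNA with a retinoid X receptor partner and switch on target genes, among them genes whose enzymes break down or store retinoids. The ICT antibodies bind CTLA-4, a brake on T cell priming that regulatory T cells carry in abundance, and PD-L1, the ligand through which tumour and myeloid cells restrain activated T cells. In a whole tumour the RNA of cancer cells, stroma and leukocytes is pooled, so fewer cells of a type and less RNA per cell cannot be told apart.

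Summed counts of a tumour lay between 15435493 and 20792937 in the tretinoin group and between 14033046 and 21095905 in the ICT group. Their means did not differ past the threshold (exact two-sided permutation test over 92378 divisions of the tumours, p = 0.106). The tumours correlated at r between 0.9618 and 0.9884, and no pair looked like 1 library deposited more than once. Along the first principal component (PC1) of the 500 most variable genes, ICT tumours AB63 and AB82 and tretinoin tumour AB33 lay lowest of the 19, so results that rest on them are also given without them. The names place the tretinoin tumours in series 3 and 7 and the ICT tumours in series 6 and 8, by the first digit. No series holds both treatments, so series and treatment cannot be told apart, and each tretinoin series was also compared with each ICT series. Of the mesothelial markers, Vim and Pdpn were abundant, while Upk3b, Krt19, Lrrn4 and Calb2 were too low to test. Ddx3y, Eif2s3y and Uty, genes of the Y chromosome, were listed at 0 in all 19 tumours. Kdm5d, a further gene of the Y chromosome, was not at 0 in all of them but was too low to test.

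Of 14314 genes tested with edgeR's quasi-likelihood test, 83 were higher in tretinoin tumours and 91 were higher in ICT tumours when an adjusted p (Benjamini-Hochberg) under 0.05 was asked together with a fold change of 1 or more on the log2 scale, which is 0.58% and 0.636% of the genes tested. Without the fold minimum, 774 genes (5.41%) were higher in tretinoin tumours and 591 (4.13%) in ICT tumours. The median log2 fold change over all genes tested was 0.000203. Of the called genes, 57 of the 83 and 76 of the 91 are annotated as protein coding. Those higher in tretinoin included genes that degrade, store and sense retinoids, and those higher in ICT included genes of neutrophils, of the chemokines that draw them and of the glucocorticoid response. The genes described are the 12 with the largest fold in each direction among those expressed well enough, up to 2 leading members of each gene list and a short list of genes given in any case. Every other gene named was chosen after its values were seen.

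**Figure D1:**
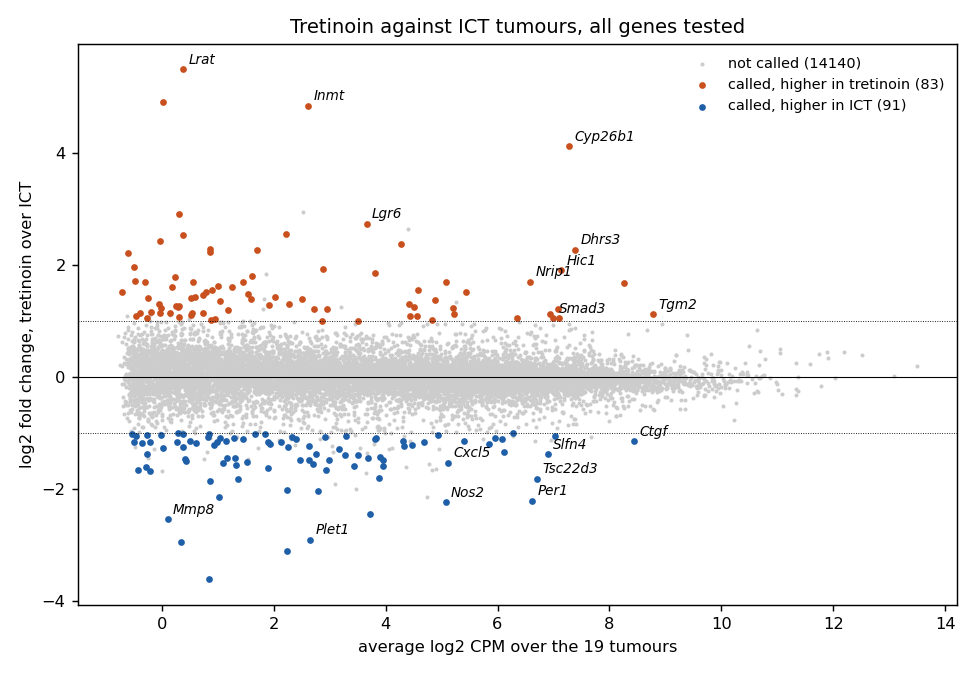
Each point is 1 of the 14314 genes tested, placed by its average log2 CPM (read counts scaled to library size) over the 19 tumours (x axis) and its log2 fold change of tretinoin over ICT (y axis), with dotted lines at 1 and -1. The 83 genes called higher in tretinoin and the 91 called higher in ICT are coloured, and Lrat, Inmt and Cyp26b1 lie highest among the labelled genes.

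The sides differed in how cleanly the tumours parted. Every tretinoin tumour was above every ICT tumour for 37 of the 83 genes called higher in tretinoin, a pattern held by 119 of all genes tested (0.831%). Every ICT tumour was above every tretinoin tumour for 12 of the 91 genes called higher in ICT, against 49 of all genes tested (0.342%). These counts use the same contrast as the call and are a description. The median coefficient of variation of the called genes was 31.3% in tretinoin tumours and 43% in ICT tumours on the tretinoin side, and 42.8% and 42.4% on the ICT side. The mean of the PBS tumours was nearer to the lower of the groups for 73 of the 83 genes and for 81 of the 91. Distances were taken on the linear scale, where a PBS mean midway in log2 fold counts as nearer to the lower group. The same count over all genes tested was not made, so these counts do not show which group moved away from PBS.

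The count on the ICT side depended on single tumours. Without AB33 it was 158, and without AB63 it was 59, while the count on the tretinoin side was 90 and 96. With both AB63 and AB82 left out, a choice made after their place on PC1 was seen, 122 genes were higher in tretinoin tumours and 49 in ICT tumours. With AB33 left out as well, the counts were 122 and 81, and 143 of the 174 genes called with all tumours were called again. Pairs of series gave between 55 and 66 genes higher in tretinoin and between 19 and 114 higher in ICT, the highest from series 7 against series 8.

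Single values per tumour were compared by exact permutation. On PC1, which held 28.71% of the variance, the tretinoin tumours had a mean of 5.65 ± 10.7 (SD, n = 9) and the ICT tumours one of -5.09 ± 12.5 (SD, n = 10), a difference of 10.7 units that did not pass (exact permutation test, p = 0.0616, adjusted p = 0.123 over 4 single values). On PC2, which held 12% of the variance, the means were 5.13 ± 7.47 and -4.62 ± 5.78 (exact permutation test, p = 0.00593, adjusted p = 0.0237). All 9 tretinoin tumours were above the ICT median on PC2, and the ranges of the groups overlapped.

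To show the DNA in front of the called genes, promoters were taken from RefSeq on GRCm38.p6, 250 bases before to 50 after the start. Of the called genes, 50 of the 83 and 64 of the 91 had at least 1 such window. A retinoic acid receptor pair binds 2 half-sites, searched here on both strands with the forms AGGTCA, then AGTTCA, then GGGTCA, and lastly GGTTCA, in the same orientation, 5 or 2 bases apart. Such a pair stood in 0 of 50 promoters of genes higher in tretinoin (0%) and 1 of 64 higher in ICT (1.56%). Over all genes tested it stood in 17 of 9744 (0.174%). For pairs this rare, 50 promoters cannot show whether genes higher in tretinoin lack them, and DNA outside the window was not searched. The 3 sets held a mean of 1.44, 1.17 and 1.28 windows per gene. At least 1 half-site, a search added after the pairs were seen, stood in 44%, 45.3% and 42.7%. No half-site stood in the 250 bases before any start of Cyp26b1, Lrat, Dhrs3, Stra6, Lgr6, Smad3 or Inmt, all higher in tretinoin. For 3 retinoid-related genes that held some, half-sites in the window, on either strand, are printed in capitals. They are shown with 250 bases before the start for the corepressor gene Nrip1, which holds 3 of them, and with 15 bases on each side for Rarg and Hic1.
Nrip1, chr16:76373828-76374077, minus strand: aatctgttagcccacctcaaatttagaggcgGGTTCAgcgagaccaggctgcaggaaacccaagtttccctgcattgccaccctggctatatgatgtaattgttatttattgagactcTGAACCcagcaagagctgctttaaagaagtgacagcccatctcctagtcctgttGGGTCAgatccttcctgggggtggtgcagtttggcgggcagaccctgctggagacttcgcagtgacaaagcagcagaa
Rarg, chr15:102257727-102257762, minus strand: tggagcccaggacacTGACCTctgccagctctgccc
Hic1, chr11:75170319-75170354, minus strand: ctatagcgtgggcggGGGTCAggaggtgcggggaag

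Letters bound by STAT factors, TTCNNNGAA, stood in 14.1% of the promoters of genes higher in ICT (9 of 64), 2% of those higher in tretinoin (1 of 50) and 8.51% of those of all genes tested. The core of the interferon-stimulated response element, written as 2 blocks of GAAA with 2 bases between them, stood in 3.12%, 6% and 4.04%. Both strands were searched and each motif was counted apart from the others. The matches are letters found in a window and say nothing of binding. Of the 9 genes, those whose match with its flanks lies in front of the annotated gene are printed, with the match in capitals, because they include cytokine and hormone genes called higher in ICT. Il1f9 encodes an interleukin-36 cytokine, Tnfaip6 a hyaluronan-binding protein made in inflammation, Fgf23 a hormone that lowers phosphate and Ceacam19 an adhesion family protein. All 4 had overlapping groups, with log2 fold changes of -1.51, -1.48, -2.02 and -1.18 (edgeR adjusted p = 0.0111, 1.53e-05, 0.000277 and 0.0338), and Ceacam19 was lost in 10 of the 19 fits that left out 1 tumour, all but those without AB33, AB71, AB62, AB64, AB65, AB81, AB83, AB84 and AB85 (adjusted p up to 0.0665).
Il1f9, chr2:24186333-24186371, plus strand: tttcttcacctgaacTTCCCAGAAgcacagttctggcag
Tnfaip6, chr2:52037889-52037927, plus strand: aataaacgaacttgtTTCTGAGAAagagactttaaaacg
Fgf23, chr6:127072786-127072824, plus strand: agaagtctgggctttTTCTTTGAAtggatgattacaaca
Ceacam19, chr7:19888141-19888179, minus strand: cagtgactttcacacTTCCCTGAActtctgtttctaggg

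Genes of retinoid turnover parted the groups with no overlap in 3 members. Values are normalized read counts, given as the lowest, median and highest tumour of a group. Cyp26b1 (ENSMUSG00000063415.12, chr6:84571414-84593908), whose enzyme degrades retinoic acid, had 4402, 5796 and 6986 in tretinoin tumours and 118, 290.4 and 603 in ICT tumours. Every tretinoin tumour lay far above every ICT tumour, by 17.3-fold in the fit (log2 ratio 4.11, SE 0.25, edgeR adjusted p = 1.45e-09, where the log2 ratio is the log2 fold change of tretinoin over ICT and SE its standard error). PBS tumours ran from 100.6 to 213, and against them the log2 fold change was 5.19 (adjusted p = 1.99e-16) for tretinoin and 1.08 (adjusted p = 0.00527) for ICT.

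Dhrs3 (ENSMUSG00000066026.14, chr4:144892827-144928209), which reduces retinaldehyde to retinol, had 4679, 5047 and 5928 in tretinoin and 790.2, 1095 and 1368 in ICT tumours. Again no tumour crossed over (log2 ratio 2.27, SE 0.095, edgeR adjusted p = 1.43e-12). Against the 4 pairs of series the log2 fold change stayed between 2.01 and 2.48, and for Cyp26b1 between 3.83 and 4.34. Lrat, which esterifies retinol for storage, had 12.7, 46.5 and 63.5 in tretinoin tumours, whereas the lowest, median and highest ICT tumours had 0, 0 and 3.48. The gap was complete, but the fitted log2 ratio of 5.48 (SE 0.47, edgeR adjusted p = 1.52e-07) leans on ICT counts near 0.

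The rest of the turnover list was closer between the groups. Of its 14 members tested, 4 were higher in tretinoin tumours and 1 in ICT tumours at an adjusted p below 0.05, against 5.41% and 4.13% of all genes tested, with a median log2 ratio of -0.0383. Rdh5, a retinol dehydrogenase gene, was the fourth on the tretinoin side (log2 ratio 0.34, SE 0.11, edgeR adjusted p = 0.0487), a call that was lost in 16 of the 19 fits that left out 1 tumour, all but those without AB31, AB65 and AB84 (adjusted p up to 0.105). Dhrs9, another dehydrogenase gene that acts on retinol, was the member higher in ICT (log2 ratio -0.94, SE 0.22, edgeR adjusted p = 0.0106). Among the enzymes that make retinoic acid, Aldh1a1, Aldh1a2 and Aldh1a3 did not pass. Cyp26a1, Cyp26c1 and Rarb were not analysed here.

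**Figure D2:**
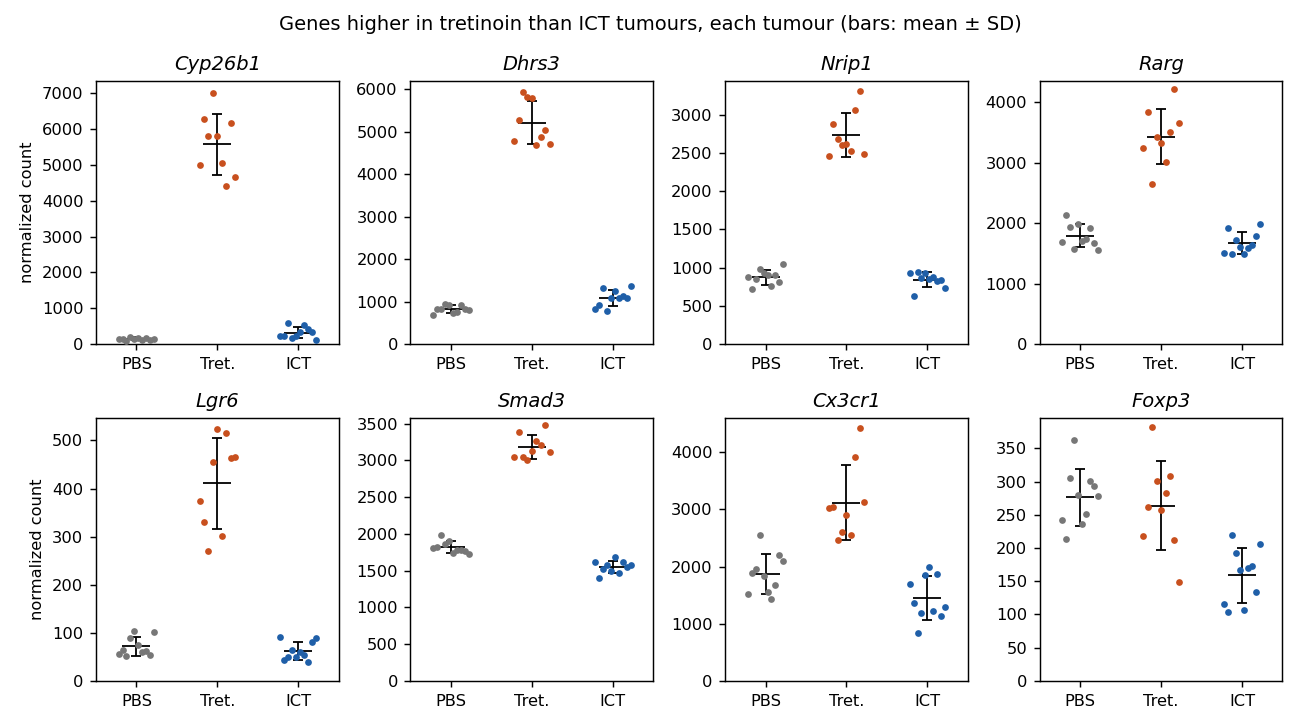
Normalized read counts of each tumour (y axis, linear, from 0) in PBS, tretinoin and ICT tumours for 8 genes higher in tretinoin than ICT tumours, with the mean and SD as black bars. For Cyp26b1, Dhrs3, Nrip1, Rarg, Lgr6, Smad3 and Cx3cr1 each tretinoin tumour lies above all ICT tumours, and for Foxp3 the groups overlap.

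Carriers and receptors of retinoids followed. Stra6, the membrane receptor that takes up retinol, had 615, 951 and 1413 in tretinoin and 166, 245 and 694 in ICT tumours. Of the 9 tretinoin tumours, 8 were above all ICT tumours (log2 ratio 1.69, SE 0.24, edgeR adjusted p = 8.93e-05). Crabp2, which carries retinoic acid to its receptors, had 1621, 2062 and 2433 and 746, 1131 and 1214, with no overlap and a difference just under the fold minimum (log2 ratio 0.98, SE 0.10, edgeR adjusted p = 8.34e-07). These were 2 of the 6 carrier genes tested, against 5.41% of all genes, the others did not pass, and none was higher in ICT.

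In the list of receptors and coregulators, 5 of 11 genes tested were higher in tretinoin and 1 in ICT, against 5.41% and 4.13% of all genes. Nrip1, a corepressor of nuclear receptors, had 2463, 2613 and 3306 in tretinoin tumours against 634, 863 and 938 in ICT tumours and 720.5, 886 and 1046 in PBS tumours. ICT tumours lay with the PBS tumours and tretinoin tumours apart from both (log2 ratio 1.70, SE 0.073, edgeR adjusted p = 1.61e-12). Rarg, the gene of retinoic acid receptor gamma, had 2641, 3429.6 and 4214 and 1486, 1623 and 1987, again without overlap (log2 ratio 1.04, SE 0.078, edgeR adjusted p = 2.31e-08). The other members on that side were Nr2f2 and Nr2f1, genes of the COUP orphan receptors, and the coactivator gene Ncoa3, with log2 fold changes of 0.92, 0.74 and 0.47 (edgeR adjusted p = 4.41e-07, 0.0217 and 0.0112). Rara, the gene of retinoic acid receptor alpha, was the one higher in ICT (log2 fold change -0.32, edgeR adjusted p = 0.0187). With AB63 and AB82 left out, Rara no longer passed.

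Of 15 target genes outside retinoid metabolism, 5 were higher in tretinoin tumours, against 5.41% of all genes, none was higher in ICT, and the median log2 fold change was 0.275. Hic1, a zinc finger repressor gene, had 2866, 4070.2 and 6162 in tretinoin and 593, 1031 and 2075 in ICT tumours, so that the lowest tretinoin tumour stood above the highest ICT tumour (log2 ratio 1.91, SE 0.18, edgeR adjusted p = 1.06e-06). Tgm2, which encodes tissue transglutaminase, the homeobox genes Meis1 and Meis2, and Dll1, a Notch ligand gene, made up the rest. Their log2 fold changes were 1.12, 0.48, 0.62 and 0.82 (edgeR adjusted p = 0.003, 0.00387, 0.0028 and 0.00218). Hoxb3, a homeobox gene outside the list, lay at the minimum log2 ratio of 1 (SE 0.12, edgeR adjusted p = 7.39e-06).

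Beyond the retinoid lists, large differences on the tretinoin side belonged to genes of varied function. Inmt, which encodes an N-methyltransferase of indolamines, had 137, 199 and 453 in tretinoin and 3.52, 7.59 and 17.2 in ICT tumours (log2 ratio 4.84, SE 0.27, edgeR adjusted p = 2.49e-10). Lgr6, a receptor for R-spondins, had 269, 455 and 523 and 39.03, 56.1 and 91.1 (log2 ratio 2.73, SE 0.18, edgeR adjusted p = 1.45e-09). For both genes every tretinoin tumour lay well above every ICT tumour. PBS tumours had at most 12.6 counts of Inmt and 105 of Lgr6.

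Calcb, which encodes the beta form of calcitonin gene-related peptide, had 63.7, 130.1 and 227 in tretinoin and 4.86, 21.4 and 50.01 in ICT tumours (log2 ratio 2.54, SE 0.30, edgeR adjusted p = 7.43e-06). It was the 1 gene of 6 tested in the list of calcitonin family ligands and receptors to pass, where 5.41% of all genes did on that side. Wnt9a, a Wnt ligand gene, had 279, 568 and 902 and 51.2, 117 and 221 (log2 ratio 2.38, SE 0.26, edgeR adjusted p = 5.33e-06). Neither gene had overlapping groups. Tspan18, a tetraspanin gene, and Camk2n1, an inhibitor of calmodulin kinase II, also parted completely, with log2 fold changes of 1.93 and 1.84 (edgeR adjusted p = 2.11e-07 and 1.45e-09).

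Art2a-ps and Izumo1r overlapped between the treatments. Art2a-ps, a gene for an ADP-ribosyltransferase of T cells annotated as a polymorphic pseudogene, had a log2 ratio of 2.25 (edgeR adjusted p = 0.000511), with 7 of 9 tretinoin tumours above all ICT tumours. Its close relative Art2b, lower in counts, had one of 2.91 (edgeR adjusted p = 8.79e-06), and reads shared by the copies make both uncertain. Izumo1r, a folate receptor family gene carried by regulatory T cells, had 33.5, 69.3 and 153 in tretinoin, 8.70, 22.7 and 46.4 in ICT and 44.03, 55.7 and 85.8 in PBS tumours. Tretinoin and PBS tumours lay together and ICT tumours mostly below them (log2 ratio 1.80, SE 0.30, edgeR adjusted p = 0.000518).

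Several genes of moderate fold parted the groups without overlap. Smad3, which transduces transforming growth factor beta (TGF-β) signals, had 2999.9, 3129 and 3475 in tretinoin, 1401, 1561 and 1689.8 in ICT and 1722, 1797 and 1990.0 in PBS tumours. Tretinoin tumours were highest and ICT tumours lowest (log2 ratio 1.05, SE 0.041, edgeR adjusted p = 8.63e-13). Lrrc32, which docks latent TGF-β on regulatory T cells and platelets, had 416, 571 and 706 and 169.6, 228 and 302 (log2 ratio 1.30, SE 0.11, edgeR adjusted p = 1.02e-07). Cx3cr1, the fractalkine receptor of monocytes and macrophages, had 2458, 3027 and 4423 and 837, 1333 and 1994 (log2 ratio 1.11, SE 0.15, edgeR adjusted p = 5.86e-05). Ptgs1, which encodes cyclooxygenase 1, had 645, 906 and 1637 and 290.0, 424 and 524 (log2 ratio 1.23, SE 0.16, edgeR adjusted p = 2.85e-05). None of these 4 genes, all chosen after their values were seen, overlapped between tretinoin and ICT tumours.

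Set against PBS, genes higher in tretinoin took more than one shape. The comparisons with PBS use the same PBS tumours as each other and the same tretinoin or ICT tumours as the direct comparison, so they are given side by side only. For Nrip1 the log2 fold change was 1.64 (adjusted p = 4.64e-13) after tretinoin and -0.059 (adjusted p = 0.582) after ICT. For Smad3 it was 0.81 (adjusted p = 1.04e-12) and -0.23 (adjusted p = 0.000553), above PBS after tretinoin and below it after ICT. Foxp3 had -0.064 (adjusted p = 0.767) and -0.80 (adjusted p = 0.000867), and Izumo1r 0.50 (adjusted p = 0.0997) and -1.30 (adjusted p = 0.00203), so for these genes of regulatory T cells it was the ICT tumours that stood away from PBS.

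**Figure D3:**
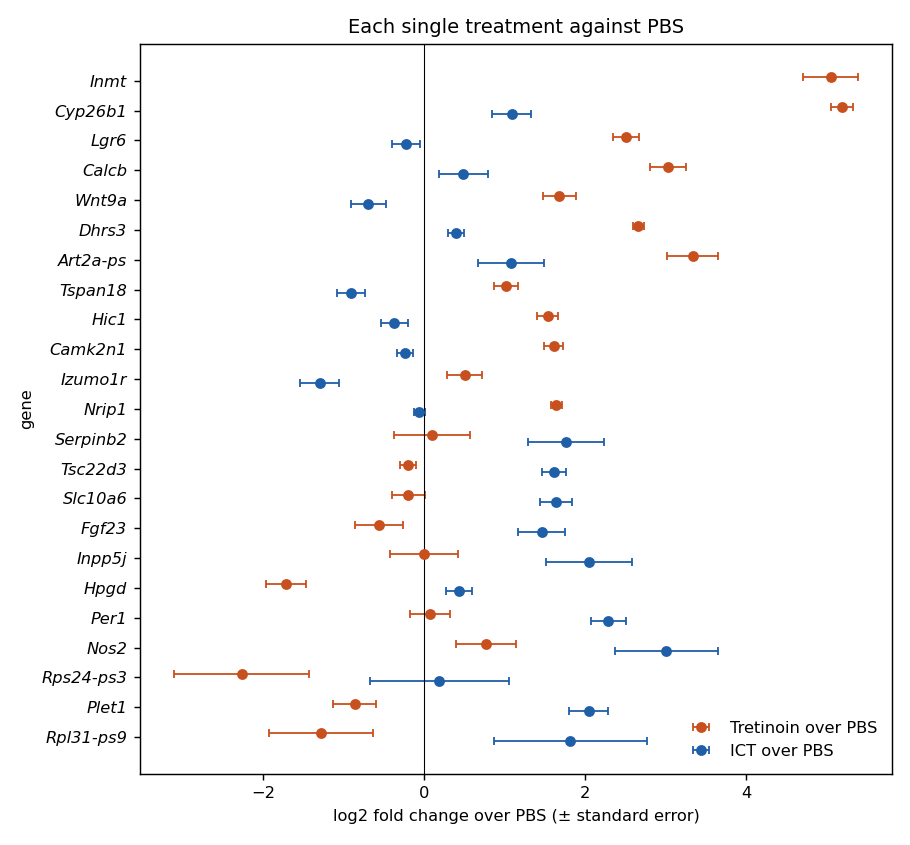
Log2 fold change over PBS tumours with its standard error (x axis) after tretinoin and after ICT for the 12 genes with the largest difference towards tretinoin and 11 of the 12 towards ICT (y axis, ordered by that difference). Inmt was too low in ICT and PBS tumours to be tested there. From Serpinb2 downwards, the genes higher in ICT, the ICT points lie to the right of the tretinoin points.

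Regulatory T cell and checkpoint genes differed in few members. Of 8 regulatory T cell genes tested, Foxp3 and Ctla4 were the 2 higher in tretinoin tumours, against 5.41% of all genes, none was higher in ICT, and the median log2 fold change was 0.285. Foxp3, the lineage transcription factor, had 149, 262 and 382 in tretinoin and 104, 168 and 219 in ICT tumours, with 6 of 9 tretinoin tumours above all ICT tumours (log2 ratio 0.74, SE 0.16, edgeR adjusted p = 0.00604). Ctla4, whose product the ICT antibody binds, had 109, 265 and 484 and 69.3, 126 and 262, again with 6 of 9 tretinoin tumours above all ICT tumours (log2 ratio 0.95, SE 0.25, edgeR adjusted p = 0.0216). Against PBS, Ctla4 had log2 fold changes of 0.18 (edgeR adjusted p = 0.624) after tretinoin and -0.77 (edgeR adjusted p = 0.0115) after ICT.

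Of 15 checkpoint genes, Ctla4 was the 1 higher in tretinoin and Havcr2, which encodes TIM-3, the 1 higher in ICT (log2 ratio -0.73, SE 0.13, edgeR adjusted p = 0.00106), shares near the 5.41% and 4.13% of all genes. For Cd274, the gene of PD-L1, counts were 624, 1327 and 5502 in tretinoin and 472, 2571 and 9604 in ICT tumours. The ranges covered each other, and the difference did not pass (log2 ratio -0.63, SE 0.51, edgeR adjusted p = 0.479). Pdcd1lg2, which encodes PD-L2, had 33.5, 119 and 1465 and 113, 413 and 2362, also without passing (log2 ratio -1.18, SE 0.68, edgeR adjusted p = 0.304). Without AB33, the tretinoin tumour with the highest count, it passed at an adjusted p of 0.0177 and a log2 fold change of -2.25.

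None of 16 T cell and cytotoxic genes passed, and their median log2 fold change was -0.0714. Cd8a, the CD8 coreceptor gene, had 85.4, 159.6 and 475 in tretinoin, 64.9, 113 and 608 in ICT and 91.7, 112 and 278 in PBS tumours, with the groups interleaved (log2 ratio -0.09, SE 0.43, edgeR adjusted p = 0.927). Its log2 fold change was 0.18 without AB63, 0.26 without AB82 and 0.0020 without AB75, and passed in none of these fits. With both AB63 and AB82 left out, 5 of the 16 genes were higher in tretinoin, with a median of 0.59, and 4 of the 8 regulatory T cell genes. Cd3e, a T cell receptor subunit gene chosen after its values were seen, then had a log2 ratio of 0.98 (edgeR adjusted p = 0.00267), against 0.45 with all tumours (edgeR adjusted p = 0.374). AB63 and AB82 held the highest ICT counts of Cd8a (521.5 and 608.4) and Cd3e (344.7 and 331.4). AB33, the highest tretinoin tumour for both genes (475.2 and 394.8), stayed in. That fit cannot decide whether T cell genes differ, because leaving those tumours out lowers the ICT side alone. With AB33 left out as well, 5 of the 16 and 4 of the 8 were higher in tretinoin, with medians of 0.457 and 0.462. Gzma, Gzmb, Prf1 and Ifng were not analysed here.

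On the ICT side interferon genes passed in shares near that of all genes. Of 26 antiviral genes, 1 was higher in ICT (4.13% of all genes were), Ifit1bl1 (log2 ratio -0.70, SE 0.20, edgeR adjusted p = 0.0289), and that call was lost without any of AB31, AB62, AB72, AB74 or AB81 (adjusted p up to 0.0561). All 26 had a lower mean in tretinoin tumours, with a median log2 ratio of -0.188. Of 24 genes induced by interferon gamma, 1 was higher in ICT, again a share near the 4.13% of all genes, namely Nos2, described with the inflammatory genes. Irf7, a transcription factor of type I interferon induction, had 2753, 3749.8 and 5254 in tretinoin and 3125, 4783 and 6327 in ICT tumours, with overlapping ranges (log2 ratio -0.34, SE 0.15, edgeR adjusted p = 0.164). Cxcl9, a chemokine for activated T cells, had 2023, 4379 and 19682 and 817, 8189 and 24127 (log2 ratio -0.36, SE 0.55, edgeR adjusted p = 0.731).

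None of 16 class I and 8 class II antigen presentation genes passed either, with median log2 fold changes of -0.208 and -0.397. A standard error of 0.55 for Cxcl9 leaves room for a difference of either sign. Beside PBS, the median log2 fold change of the interferon gamma list was 1.21 after tretinoin and 1.51 after ICT, and that of the antiviral list 0.242 and 0.419. Fcgr4, an activating Fc receptor gene of myeloid cells, had 1020.1, 1989.7 and 6298 and 647, 2757 and 6476, and none of the 5 Fc gamma receptor genes passed. Ccl24, a chemokine for eosinophils, did not pass (log2 ratio 0.45, SE 0.42, edgeR adjusted p = 0.548), and no gene of the eosinophil and type 2 list did.

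Of 9 neutrophil genes tested, 5 were higher in ICT tumours and all 5 passed the fold minimum, against 0.636% of all genes, and the median log2 fold change was -1.38. Mmp8, the neutrophil collagenase gene, had 0.919, 3.92 and 10.4 in tretinoin and 12.9, 25.9 and 61.2 in ICT tumours, so the counts were low but did not overlap (log2 ratio -2.54, SE 0.34, edgeR adjusted p = 4.25e-05). S100a8, whose protein forms calprotectin with that of S100a9, had 33.7, 58.9 and 119.5 and 75.1, 154 and 299, with 6 of 10 ICT tumours above all tretinoin tumours (log2 ratio -1.38, SE 0.27, edgeR adjusted p = 0.00194). Il1r2, the decoy receptor of interleukin 1, had 64.02, 91.1 and 145 and 136, 228 and 464, with 9 of 10 ICT tumours above (log2 ratio -1.39, SE 0.20, edgeR adjusted p = 8.93e-05).

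S100a9 and Cxcr2, the receptor that brings neutrophils to CXC chemokines, completed the 5, with log2 fold changes of -1.49 and -1.43 (edgeR adjusted p = 0.00201 and 0.000383). Csf3r, Mmp9 and Lcn2 had lower means in tretinoin tumours without passing, and Ltf a higher one. Without AB33, Csf3r passed at an adjusted p of 0.0143 and Lcn2 at 0.0152, and Lcn2 also passed without AB64, AB65 or AB85. Further markers of maturing and mature neutrophils were near the floor. Ly6g, a surface antigen, had at most 7.84 normalized counts in any tretinoin and 3.37 in any ICT tumour, and Camp, Ngp and Mpo were likewise too low to test. The summed normalized count of the 13 listed genes found ran from 3365 to 8307 in tretinoin, 5465 to 15030.0 in ICT and 4099 to 11636 in PBS tumours. With AB63 and AB82 left out, 6 of 9 were higher in ICT, and with AB33 left out as well 7 of 9.

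Of 5 genes tested in the list of neutrophil recruiting factors, 3 were higher in ICT tumours, against 4.13% of all genes. Cxcl5 had 175, 297 and 579 in tretinoin and 442, 889 and 1558 in ICT tumours, with 8 of 10 ICT tumours above all tretinoin tumours (log2 ratio -1.53, SE 0.24, edgeR adjusted p = 0.000339). Cxcl3 had 39.2, 87.4 and 197 and 162, 255 and 423, again with 8 of 10 ICT tumours above (log2 ratio -1.59, SE 0.28, edgeR adjusted p = 0.000816). Cxcl1 was the third to pass (log2 ratio -1.40, SE 0.27, edgeR adjusted p = 0.00191), and Cxcl2 did not pass (log2 ratio -0.96, SE 0.31, edgeR adjusted p = 0.0555) unless any of AB33, AB64, AB65 or AB85 was left out, at adjusted p down to 0.0153. Beside PBS, Cxcl5 had log2 fold changes of -0.52 (adjusted p = 0.0996) after tretinoin and 1.01 (adjusted p = 0.00415) after ICT, and Cxcl3 of -0.45 (adjusted p = 0.238) and 1.14 (adjusted p = 0.00121).

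**Figure D4:**
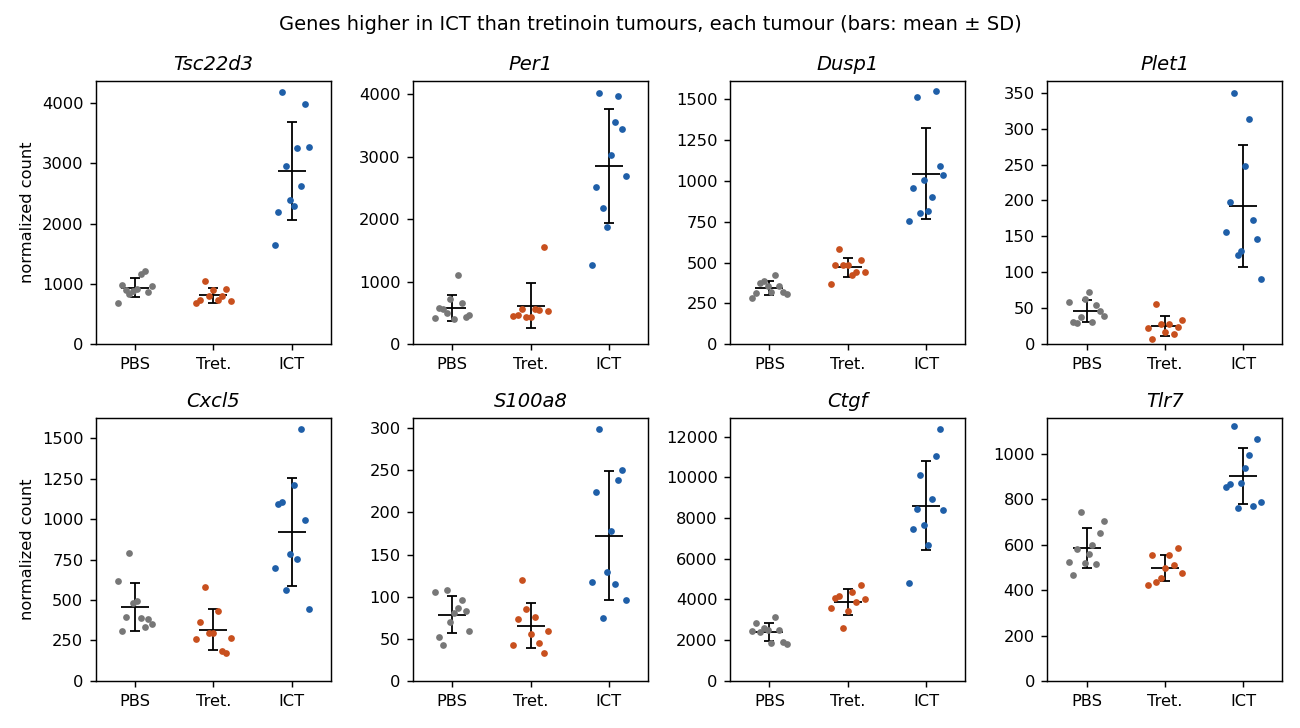
Normalized read counts of each tumour (y axis, linear, from 0) in PBS, tretinoin and ICT tumours for 8 genes higher in ICT than tretinoin tumours, with the mean and SD as black bars. For Tsc22d3, Dusp1, Plet1, Ctgf and Tlr7 each ICT tumour lies above all tretinoin tumours, while for Per1 tretinoin tumour AB74 reaches the ICT range and for Cxcl5 and S100a8 the groups overlap.

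Of 11 genes tested that glucocorticoids induce, 5 were higher in ICT tumours, against 4.13% of all genes tested, and none in tretinoin tumours. Tsc22d3 (ENSMUSG00000031431.13, chrX:140539528-140600659), which encodes the leucine zipper protein GILZ, had 678, 797 and 1049 in tretinoin, 1640.4, 2792 and 4192 in ICT and 682, 901 and 1209.6 in PBS tumours. All ICT tumours stood above all others, and tretinoin and PBS tumours lay together (log2 ratio -1.82, SE 0.15, edgeR adjusted p = 8.5e-08). Per1, a clock repressor that glucocorticoids also induce, had 437, 529 and 1561 and 1269.8, 2858 and 4022, with 9 of 10 ICT tumours above all tretinoin tumours (log2 ratio -2.20, SE 0.26, edgeR adjusted p = 1.38e-05). The exception was tretinoin tumour AB74, whose count lay above that of the lowest ICT tumour. Dusp1, a phosphatase that switches off MAP kinases, had 371, 483 and 584 and 753, 983 and 1549 without overlap (log2 ratio -1.14, SE 0.13, edgeR adjusted p = 3.91e-06).

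The median log2 ratio of the list was -0.638. The others that passed were Sgk1, a kinase gene (log2 ratio -0.74, SE 0.091, edgeR adjusted p = 1.38e-05), and Fkbp5, a chaperone partner of the glucocorticoid receptor (log2 ratio -0.63, SE 0.17, edgeR adjusted p = 0.0228), which no longer passed without a filter on low counts. Zbtb16, Mt1, Mt2, Cdkn1a and Lcn2 had lower means in tretinoin tumours without passing, and Pdk4 a higher one. With AB63 and AB82 left out, 5 of the 11 were higher in ICT and 1 in tretinoin, and with AB33 left out as well 6 and 1. Cebpd, a transcription factor gene outside the list, parted the groups (log2 ratio -1.16, SE 0.12, edgeR adjusted p = 1.26e-06). Across the 4 pairs of series the log2 fold change of Tsc22d3 lay between -1.98 and -1.68 and that of Per1 between -2.81 and -1.57. Tsc22d3 passed in all 4 pairs and Per1 in 3 of them (edgeR adjusted p up to 0.147).

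Clock genes passed in both directions. Of 16 clock genes tested, 2 were higher in ICT, Per1 and the repressor gene Ciart (log2 ratio -0.50, SE 0.16, edgeR adjusted p = 0.0495), and 4 were higher in tretinoin, against 4.13% and 5.41% of all genes, and the median log2 fold change was 0.144. Bhlhe41, a clock repressor gene, had 363, 558 and 619.9 in tretinoin and 259, 305 and 404 in ICT tumours (log2 ratio 0.72, SE 0.11, edgeR adjusted p = 0.00014). Hlf and Dbp, genes of related transcription factors under clock control, and Cry2, a repressor gene, had log2 fold changes of 0.91, 0.37 and 0.26 (edgeR adjusted p = 0.00114, 0.0426 and 0.0269). The calls of 3 of these hung on single tumours: Ciart was lost in 17 of the 19 fits that left out 1 tumour, all but those without AB33 and AB65 (adjusted p up to 0.1), Dbp was lost in 13 of the 19 fits that left out 1 tumour, all but those without AB31, AB72, AB74, AB63, AB84 and AB85 (adjusted p up to 0.103) and Cry2 was lost without any of AB33, AB34, AB35, AB61, AB62, AB63, AB75, AB81 or AB83 (adjusted p up to 0.0674). Per2, Per3, Arntl, Clock and Nr1d1 did not pass. Time of day at resection was not given in the sources used here, and its part in these values was not tested.

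Among 12 immediate early and heat shock genes, 3 were higher in ICT, against 4.13% of all genes, and none in tretinoin, with a median log2 ratio of -0.119. They were Dusp1, the chaperone gene Dnajb1 (log2 ratio -0.24, SE 0.055, edgeR adjusted p = 0.00796) and Fos, a subunit of the AP-1 factor, which had 282, 409.8 and 513 in tretinoin, 475, 819 and 1036 in ICT and 695, 877 and 1101 in PBS tumours. It was the tretinoin tumours that stood below PBS (log2 ratio -0.97, SE 0.14, edgeR adjusted p = 8.97e-05). Fos did not pass when all 39 tumours were fitted together (edgeR adjusted p = 0.128). Jun, Junb and Egr1 did not pass.

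Of 15 inflammatory mediators tested, 5 were higher in ICT, against 4.13% of all genes, and none in tretinoin, with a median log2 ratio of -0.701. Il6 had 3.37, 18.99 and 32.99 in tretinoin and 24.5, 56.4 and 86.7 in ICT tumours, low counts with 8 of 10 ICT tumours above all tretinoin tumours (log2 ratio -1.44, SE 0.30, edgeR adjusted p = 0.00396). Ptgs2, which encodes cyclooxygenase 2, had 272, 345 and 530.0 and 434, 591 and 896 (log2 ratio -0.82, SE 0.15, edgeR adjusted p = 0.00138). Against PBS, Ptgs2 had log2 fold changes of -0.67 (edgeR adjusted p = 0.00288) after tretinoin and 0.16 (edgeR adjusted p = 0.45) after ICT. Those of Il6 were -0.52 (edgeR adjusted p = 0.168) and 0.93 (edgeR adjusted p = 0.00381). Hpgd, whose enzyme breaks down prostaglandins, was also higher in ICT, with 3.37, 13.02 and 23.1 in tretinoin, 31.5, 53.2 and 78.9 in ICT and 23.2, 40.6 and 56.5 in PBS tumours. Tretinoin tumours lay below both other groups without touching the ICT range (log2 ratio -2.15, SE 0.24, edgeR adjusted p = 4.8e-06).

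Nos2, which encodes inducible nitric oxide synthase, had 82.7, 145 and 668 in tretinoin and 102, 425 and 5296 in ICT tumours. The ICT median lay inside the tretinoin range, the top of the ICT range lay far outside it, and the call (log2 ratio -2.24, SE 0.68, edgeR adjusted p = 0.0459) was lost in 13 of the 19 fits that left out 1 tumour, all but those without AB33, AB61, AB62, AB64, AB65 and AB85 (adjusted p up to 0.127). Without AB63 alone the log2 fold change of Nos2 was -1.29. With both AB63 and AB82 left out the log2 fold change of Nos2 was -0.99 (edgeR adjusted p = 0.217). Il18, an interleukin gene, and Ccl7, a monocyte chemokine gene, were the remaining members that passed (-0.70 and -0.96 on the log2 scale, edgeR adjusted p = 0.00965 and 0.0405), and Ccl7 was lost in 14 of the 19 fits that left out 1 tumour, all but those without AB33, AB71, AB64, AB65 and AB85 (adjusted p up to 0.0768). Tnf and Il1b did not pass.

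Of 4 mast cell and basophil genes tested, 3 were higher in ICT, against 4.13% of all genes. The list held 8 genes, and the protease genes Mcpt4, Mcpt8, Tpsb2 and Cma1 were not analysed here. Ms4a2, a subunit of the high-affinity IgE receptor, had 28.1, 46.2 and 86.2 in tretinoin and 78.7, 113 and 196 in ICT tumours, with 8 of 10 ICT tumours above all tretinoin tumours (log2 ratio -1.25, SE 0.22, edgeR adjusted p = 0.000976). Hdc, the enzyme that makes histamine, had 142, 217 and 395 and 309.7, 572 and 756, with 7 of 10 above (log2 ratio -1.21, SE 0.21, edgeR adjusted p = 0.000858). Cpa3, a mast cell protease gene, followed (log2 ratio -0.68, SE 0.15, edgeR adjusted p = 0.00664), and Kit did not pass. The summed count of the 4 genes ran from 1181 to 2078 in tretinoin, 1929 to 3247 in ICT and 1416 to 1876 in PBS tumours.

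Genes of hypoxia and glycolysis were higher in ICT in 7 of 15 cases, against 4.13% of all genes, and in tretinoin in none, with a median log2 ratio of -0.412. Ankrd37, a target of hypoxia-inducible factor, had 26.95, 40.4 and 164 in tretinoin and 113, 139.6 and 285 in ICT tumours, and 1 tretinoin tumour reached into the ICT range (log2 ratio -1.48, SE 0.28, edgeR adjusted p = 0.00178). Eno1, a glycolytic enzyme gene, had a smaller difference (log2 ratio -0.36, SE 0.084, edgeR adjusted p = 0.00943). Slc2a1, the glucose transporter GLUT1, and Ndrg1, a gene induced by low oxygen, passed the fold minimum at -1.10 and -1.06 on the log2 scale (edgeR adjusted p = 0.018 and 0.0102). Bnip3, a mitophagy gene, and the glycolytic genes Ldha and Pgk1 made up the 7, at -0.84, -0.33 and -0.41. Bnip3 was lost in 12 of the 19 fits that left out 1 tumour, all but those without AB33, AB34, AB61, AB62, AB64, AB65 and AB85 (adjusted p up to 0.0775), and Pgk1 was lost without any of AB35, AB63, AB72, AB74, AB75, AB81, AB82 or AB84 (adjusted p up to 0.0692). Without AB63 and AB82, 4 of the 15 passed, without AB33 as well 8 passed, and in the first case Slc2a1 did not (edgeR adjusted p = 0.0634).

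Other leukocyte genes are given next. Ptprc, the pan-leukocyte gene of CD45, had 3296, 4621 and 7582 in tretinoin and 2934, 6141 and 14139 in ICT tumours. The difference of means did not pass (exact permutation test, p = 0.144, adjusted p = 0.144 over 4 single values), and 2 of 9 tretinoin tumours were above the ICT median. Of 7 monocyte genes, Ly6c2 was the 1 higher in ICT, where 4.13% of all genes were (log2 ratio -1.33, SE 0.41, edgeR adjusted p = 0.0481), a call that was lost in 13 of the 19 fits that left out 1 tumour, all but those without AB32, AB33, AB71, AB64, AB65 and AB85 (adjusted p up to 0.0963). Of 12 macrophage genes, Cd68, a lysosomal gene, and Mertk, an engulfment receptor gene, were higher in ICT, 2 members against that same share, with log2 fold changes of -0.43 and -0.67 (edgeR adjusted p = 0.0245 and 0.0455). Cd68 was lost without any of AB35, AB72, AB74 or AB75 (adjusted p up to 0.0577), and Mertk was lost in 12 of the 19 fits that left out 1 tumour, all but those without AB33, AB61, AB62, AB64, AB81, AB83 and AB85 (adjusted p up to 0.0872).

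Osteoclast-like genes had a median log2 fold change of -1.17 over 8 genes tested, all with a lower mean in tretinoin, and Rufy4 was the 1 that passed, against 4.13% of all genes (log2 ratio -1.63, SE 0.42, edgeR adjusted p = 0.0181). Acp5, Ctsk and Atp6v0d2, genes of bone-resorbing cells, had log2 fold changes of -1.12, -1.07 and -1.29 (edgeR adjusted p = 0.0851, 0.0777 and 0.0666). Each passed without AB71, and Atp6v0d2 also without AB32, AB75 or AB82, with lowest adjusted p of 0.04996 for Acp5, 0.0419 for Ctsk and 0.0432 for Atp6v0d2. With both AB63 and AB82 left out, 5 of the 8 passed, and with AB33 left out as well 1 did. Against PBS the median of the list was -1.17 after tretinoin and 0.0144 after ICT. None of the dendritic cell (12 tested), natural killer cell (6) or B and plasma cell genes (7) passed with all tumours.

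Among the other genes with the largest differences on the ICT side, Plet1, a membrane protein of epithelial and myeloid cells, had 7.60, 23.6 and 55.8 in tretinoin, 90.4, 164 and 349 in ICT and 29.8, 42.5 and 72.5 in PBS tumours. Every ICT tumour was above every other tumour (log2 ratio -2.90, SE 0.31, edgeR adjusted p = 2.9e-06). Fgf23 had 12.4, 32.3 and 54.7 and 47.9, 122 and 305, with 9 of 10 ICT tumours above (log2 ratio -2.02, SE 0.32, edgeR adjusted p = 0.000277). Slc10a6, a transporter of sulfated steroids, had 6.74, 20.3 and 30.4 and 41.3, 59.6 and 111, with no overlap at low counts (log2 ratio -1.83, SE 0.24, edgeR adjusted p = 2.85e-05).

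Other large differences were less even across tumours. Inpp5j, a lipid phosphatase gene, had 5.77, 27.1 and 149.9 in tretinoin and 47.9, 98.6 and 885 in ICT tumours (log2 ratio -2.04, SE 0.63, edgeR adjusted p = 0.0476). That call was lost in 13 of the 19 fits that left out 1 tumour, all but those without AB33, AB61, AB62, AB64, AB65 and AB85 (adjusted p up to 0.115), and without AB63 the log2 fold change was -1.34. Serpinb2, an inhibitor of plasminogen activators (log2 ratio -1.66, SE 0.48, edgeR adjusted p = 0.034), was lost without any of AB31, AB32, AB35, AB63, AB71, AB72, AB74, AB75 or AB84 (adjusted p up to 0.0657). The processed pseudogenes Rpl31-ps9 and Rps24-ps3 resemble ribosomal protein genes, so their reads may be shared. Rpl31-ps9 had 8.92, 19.03 and 655 in ICT tumours, where AB65 and AB82 stood far above the rest, and with DESeq2 its log2 fold change was -0.23 in place of -3.10 (adjusted p = 0.638). Rpl31-ps9 was lost in 10 of the 19 fits that left out 1 tumour, all but those without AB33, AB61, AB62, AB63, AB64, AB81, AB83, AB84 and AB85 (adjusted p up to 0.0827). Both pseudogenes are reported as uncertain.

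Genes of modest fold without overlap, chosen after their values were seen, were found on the ICT side as well. Tlr7, the sensor of single-stranded RNA, had 423, 497 and 586 in tretinoin, 762, 869.9 and 1125 in ICT and 468, 572 and 745 in PBS tumours. The 10 ICT tumours were all above the 9 tretinoin tumours (log2 ratio -0.85, SE 0.081, edgeR adjusted p = 6.57e-07). Ctgf and Cyr61, genes of matricellular proteins, also parted completely, with 2581, 4043 and 4710.2 and 4796, 8434 and 12396 for Ctgf (log2 ratio -1.14, SE 0.14, edgeR adjusted p = 1.45e-05) and a log2 ratio of -0.78 for Cyr61 (edgeR adjusted p = 1.06e-06). Against PBS, Ctgf had 0.69 (adjusted p = 0.000204) after tretinoin and 1.84 (adjusted p = 2.55e-07) after ICT. Htr1b, a serotonin receptor gene, had 75.4, 92.9 and 115 in tretinoin, 151, 229 and 265 in ICT and 182, 215 and 229 in PBS tumours, so here tretinoin tumours stood apart from both (log2 ratio -1.28, SE 0.11, edgeR adjusted p = 2.69e-07).

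More called genes lay outside every list. On the tretinoin side Tmem86a and Camkk1, the latter a calcium-dependent kinase gene, had no overlap, with log2 fold changes of 1.21 and 1.25 (edgeR adjusted p = 2.09e-09 and 1.06e-06). Ddx25, an RNA helicase gene, had 11.8, 35.6 and 53.1 in tretinoin tumours and at most 4.26 in ICT tumours, counts as low as those of Lrat (log2 ratio 4.90, SE 0.44, edgeR adjusted p = 2.69e-07). On the ICT side 8430408G22Rik, Fam46b and the Wnt receptor gene Fzd1 had no overlap, with log2 fold changes of -1.56, -1.45 and -1.05 (edgeR adjusted p = 1.42e-06, 1.16e-06 and 9.01e-05). Cd207, the langerin gene of Langerhans cells and some dendritic cells, had 1.96, 11.8 and 26.5 and 24.5, 43.7 and 85.3, with 9 of 10 ICT tumours above (log2 ratio -1.85, SE 0.30, edgeR adjusted p = 0.00036). Slfn4, a Schlafen family gene of myeloid cells, had 842, 978 and 1803 and 1412, 2852 and 4936, also with 9 of 10 above (log2 ratio -1.38, SE 0.23, edgeR adjusted p = 0.000628). Gm5960, a pseudogene, and Grm6, a glutamate receptor gene, had large fitted differences, -3.61 and -2.94 on the log2 scale (edgeR adjusted p = 0.00178 and 3.4e-05). Their counts were near 0 in tretinoin tumours, with medians of 1.95 and 4.90, against 47.9 and 31.5 in ICT tumours.

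Stromal genes that passed were mostly higher in tretinoin tumours. All 10 fibroblast and matrix genes tested had a higher mean in tretinoin and 5 passed, against 5.41% of all genes, with a median log2 ratio of 0.416. Fap, a protease of activated fibroblasts, had 294, 419 and 479.8 in tretinoin, 131, 215 and 298 in ICT and 200.1, 265 and 328 in PBS tumours (log2 ratio 0.96, SE 0.13, edgeR adjusted p = 5.38e-05). Pdgfrb, the receptor of pericytes and fibroblasts, had 2784, 3946 and 5848 and 1873, 2714 and 2978 (log2 ratio 0.61, SE 0.12, edgeR adjusted p = 0.00158). In both, 8 of 9 tretinoin tumours were above all ICT tumours. Pdgfra, a fibroblast receptor gene, and the matrix genes Fn1 and Col1a2 had smaller log2 fold changes of 0.29, 0.34 and 0.44. Pdgfra was lost without any of AB35, AB62, AB63, AB72, AB74, AB75, AB81 or AB84 (adjusted p up to 0.0681), Fn1 was lost in 16 of the 19 fits that left out 1 tumour, all but those without AB31, AB71 and AB85 (adjusted p up to 0.0984), and Col1a2 was lost in 14 of the 19 fits that left out 1 tumour, all but those without AB32, AB33, AB71, AB64 and AB85 (adjusted p up to 0.0771). With AB63 and AB82 left out, 2 of the 10 passed (median log2 fold change 0.341), and with AB33 left out as well 4 did (median 0.415). Against PBS the median of the list was 0.0988 after tretinoin and -0.344 after ICT.

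Of 12 endothelial genes, 3 were higher in tretinoin, Aplnr, Cdh5 and Vwf, against 5.41% of all genes, and 1 in ICT, the adhesion gene Sele, where 4.13% of all genes were. Aplnr, the apelin receptor of vessels, had 514, 962 and 1285 in tretinoin and 145, 457 and 624 in ICT tumours (log2 ratio 1.11, SE 0.23, edgeR adjusted p = 0.00335). Cdh5, the cadherin of endothelial junctions, had 1409.9, 1923 and 2693 and 1159, 1477 and 1678, which overlapped (log2 ratio 0.44, SE 0.11, edgeR adjusted p = 0.0124). Against PBS, Aplnr had log2 fold changes of 0.22 (edgeR adjusted p = 0.331) after tretinoin and -0.89 (edgeR adjusted p = 0.00822) after ICT. Those of Cdh5 were 0.27 (edgeR adjusted p = 0.0592) and -0.16 (edgeR adjusted p = 0.148). Vwf, the gene of von Willebrand factor (log2 ratio 0.67, SE 0.21, edgeR adjusted p = 0.0473), was lost in 15 of the 19 fits that left out 1 tumour, all but those without AB32, AB63, AB82 and AB85 (adjusted p up to 0.108), and Sele (log2 ratio -0.41, SE 0.12, edgeR adjusted p = 0.0336) was lost without any of AB32, AB65, AB72, AB74, AB75, AB81 or AB83 (adjusted p up to 0.064). None of the 14 proliferation genes passed, nor did the 8 skeletal muscle genes, whose means were all higher in tretinoin (median log2 fold change 0.359). The summed muscle count ran from 6485 to 34930.0 in tretinoin and 5952 to 27107 in ICT tumours, and its part in the stromal differences was not tested.

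**Figure D5:**
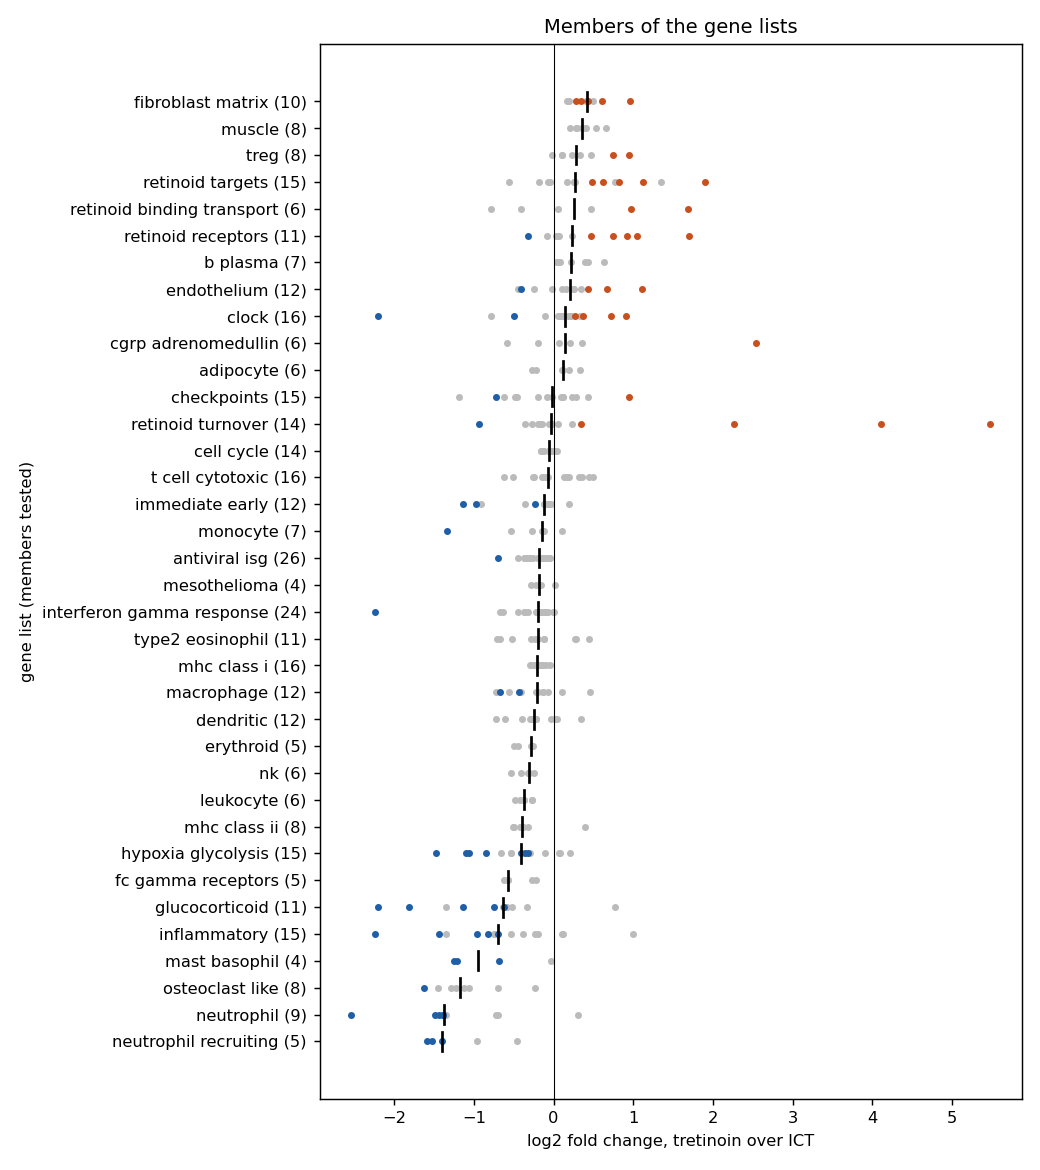
Each row is a list of genes with at least 4 members tested (y axis, number tested in brackets), each point a member placed by its log2 fold change of tretinoin over ICT (x axis), and the black line the median. Orange points passed as higher in tretinoin and blue points as higher in ICT at an adjusted p below 0.05, grey points did not pass; neutrophil recruiting and neutrophil genes lie lowest, with medians of -1.40 and -1.38.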

How the data were processed

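Whole subcutaneous AB1-HA tumours were profiled by bulk RNA sequencing, with 100-base single-end reads. Per the labels and the study's methods, the authors demultiplexed reads with bcl2fastq 2.20.0.422, aligned them with HISAT2 2.0.4 to a mouse genome they name mm11, and counted reads per gene with SummariseOverlaps. The deposited values are raw counts per gene for 39676 genes. How reads mapping to several genes or strand were handled is not given in the sources used here. Coordinates are those of the GENCODE M21 annotation, matched by gene ID for 36719 of the genes (92.5%), while promoter windows come from RefSeq on GRCm38.p6.

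Groups were taken from the treatment label: 9 tretinoin, 10 ICT and 10 PBS tumours. The labels number no animals, and p-values measure the spread between tumours. Genes with low counts were removed with edgeR's filterByExpr, which left 14314, and tested with edgeR 4.0.16 in R 4.3.3 (TMM scaling, quasi-likelihood test, Benjamini-Hochberg adjustment) on the tretinoin and ICT tumours. Each was also tested against PBS. A call needed an adjusted p below 0.05 and a log2 fold change of at least 1. Normalized counts are counts divided by DESeq2 size factors estimated over all 39 tumours. Principal components used the 500 most variable genes. Single values were compared by a two-sided exact permutation test (scipy 1.17.1). The fit was tested on simulated data. Alternatives were DESeq2 1.42.0, its size factors, other filters, all 39 tumours, pairs of name series and leaving out tumours. Counting depth, between 14033046 and 21095905 per tumour, sets the precision of low counts.

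The gene lists and the comparisons were chosen with earlier results of these data known. Genes were named if they were among the 12 called genes of largest fold in each direction with an average log2 CPM of at least 1, were among up to 2 genes with the smallest adjusted p in each of 39 lists where below 0.05, or belonged to Cyp26b1, Cyp26a1, Dhrs3, Rarb, Crabp2, Cd274, Pdcd1lg2, Ctla4, Foxp3, Cd8a, Gzmb, Ifng, Ptprc, Irf7, Cxcl9, Fcgr4, S100a8, Ly6g and Ccl24. All others were named after their values were seen. Items that these rules also chose are in part not reported here. Of the lists the text does not otherwise describe, none of the adipocyte, erythroid, skin, lymph node stroma or general leukocyte genes passed.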

Additional observations from a re-analysis of the deposited data

Results flagged for a closer look

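In 122 groups of values over 61 named genes, 4 held a tumour far from the rest of its group by Dixon's criterion, which chance reaches in about 1 in 20 groups. Calcb had 63.7 normalized counts in tretinoin tumour AB33, below the other tretinoin tumours at 123 to 227. Per1 had 1560.0 in tretinoin tumour AB74, above the others at 437 to 560.0 and within the range of the ICT tumours. Hpgd had 31.5 in ICT tumour AB84, below the others at 51 to 78.9. Eno1 had 19300.0 in tretinoin tumour AB33, above the others at 12800.0 to 15200.0. Of the 4 values, 2 belong to AB33, which also lay lowest of the tretinoin tumours on PC1.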

How the results depend on the processing

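Against 174 genes called (83 higher in tretinoin, 91 in ICT), DESeq2 called 285 (135 and 150), a minimum of 10 counts in every tumour 94 (40 and 54), and no filter on low counts 128 on the tretinoin side. Without a fold minimum 1365 genes passed (774 and 591), and with edgeR's glmTreat against a log2 fold change of 1 only 23 (17 and 6). Series 3 against series 6 gave 78 (22 higher in ICT), series 3 against 8 gave 74 (55 and 19), and series 7 against 6 gave 82 (55 and 27). The remaining pair, series 7 against 8, gave 180 (66 and 114). Leaving out 1 tumour at a time gave 148 to 248 in all, 75 to 100 on the tretinoin side and 59 to 158 on the ICT side. With AB63 and AB82 left out, added after seeing the data, 49 were higher in ICT. Fits that leave out tumours or compare series hold fewer tumours, and the causes of these shifts were not tested.

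Of 125 named genes tested, 110 passed, 89 of them without each single tumour and 36 in each of the 4 pairs of series. Foxp3, Il6, S100a9 and Cxcl1 passed in 0 of the 4 pairs, S100a8 and Cxcl3 in 1 and Cxcr2 in 2. Cxcl5 and Mmp8 passed in 3 and Il1r2 in 4. Signs turned only for genes that did not pass. Cd8a lay between -0.41 and 0.26 with 1 tumour left out, above 0 without AB63, AB75 or AB82, at 0.19 and 0.077 for series 3 against 6 and 8, at 0.76 without AB63 and AB82 and at 0.46 without AB33 as well. Without AB63 and AB82, Cxcl9 was 0.15 and Fcgr4 0.19, and for series 3 against 6 Fcgr4 was 0.11. Ccl24 lay between -0.021 (without AB33) and 0.68 with 1 tumour left out, and was -0.41 and -0.52 for series 7 against 6 and 8, where Cd3e was -0.026 against 8. The cause was not tested.

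Of the list medians, those of retinoid carriers (0.05), retinoid targets (0.52), neutrophil genes (-0.72) and the sex-linked list moved without the filter, since more genes were then tested. Half-site pairs 5 bases apart alone were found in 0% of promoters of genes higher in ICT. On log2 CPM values PC1 differed by 5.36 (exact permutation test, p = 0.495) and PC2 by 16.6 (p = 0.00624). The share of mitochondrial reads was not run, since the table used held 0 mitochondrial genes. No paired analysis was possible because the labels give no replicate numbers that the groups share. Depth limits genes of a few counts, such as Lrat, Ddx25 and Grm6, whose fitted fold depends on counts near 0 in the lower group.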
